A study of Solanum tuberosum with 5 samples.

Results

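The tags described here are 218 short transcript tags of potato plantlets whose lowest value was found after 5 days in short days. They were chosen by their measured values from 6208 tags that all 5 deposited libraries list and that reached 10 TPM (tags per 1000000 tags of a library) in at least 1 of them, so they are 3.51% of these tags; 27553 distinct tags are listed in the series as a whole. A tag was taken when its value in short days (SD) at day 5, with 1 TPM added, was at least 2-fold below its value in each of the other 4 libraries. The plantlets, of a genotype that the labels call E26, all had 3 weeks of long days (LD) first, and polyadenylated RNA was profiled in 5 groups of 1 library each: SD day 2 and SD day 5 after transfer, and LD day 0, LD day 2 and LD day 5 without transfer. The labels name whole plantlets and no organ, and give no number of plantlets per library. TPM here is the submitters' heading and involves no division by transcript length.

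Day length is the signal that decides in many potatoes when tubers form. Leaves measure it through phytochrome and the circadian clock, and in short days they send a mobile protein of the FT family, SP6A, to the stolons, while CONSTANS-like proteins hold this signal back in long days. Falling gibberellin activity in the stolon tip and a turn of sugar metabolism towards starch accompany the first swelling. The tag method used here reads 1 short stretch of each transcript, next to a cut site of a restriction enzyme. No gene names stand beside the tags in the files, and potato transcripts were not used here, so the tags cannot be placed in these pathways, and the labelled tissue could not be checked against marker genes. The tags are numbered from 1 to 218 by their mean TPM over the 5 libraries, highest first.

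The libraries were of similar depth, between 3492456 and 3688116 tags as recovered from the smallest step between values. The listed tags made up 50.9% to 59.7% of these totals, with the highest share in SD day 5. With 1 library per group there is no spread between replicates and no test, and each interval below is an exact 95% counting interval of a ratio between 2 libraries. Turned to the other libraries, the same rule found 390 tags lowest at SD day 2. It found 218 for LD day 0, 19 for LD day 2 and 51 for LD day 5. Mirrored, to take tags highest in 1 library, the rule gave 44 for SD day 5 and 10 for SD day 2. LD day 0 had the largest mirrored count, 191 tags, while each later LD library had 19. The count of tags lowest in SD day 5 was therefore above that in LD day 5 and LD day 2, equal to that in LD day 0 and below that in SD day 2. The order of the SD days turned round when values were centred on the last 2 bases of the tag, as described further on, with 139 tags lowest in SD day 2, 183 in SD day 5 and 188 in LD day 0. In whole plantlets, fewer cells of a kind and less RNA per cell cannot be told apart.

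The late loss in short days was moderate for most of the 218 tags and deep for a few. Their median stood at 21.2 TPM in SD day 2 and 4.58 TPM in SD day 5, against 25.7, 19.5 and 13.8 TPM in LD days 0, 2 and 5. Over all 6208 tags the medians lay between 17.7 and 19.8 TPM in the 5 libraries. The lowest of the other 4 libraries was on the median 2.78 times SD day 5, with quartiles of 2.40 and 3.66 and a highest ratio of 14.4. On the scale of log2(TPM + 1), on which the rule works, SD day 5 stood 1.27 below the lowest other library in the median tag. Of the 218 tags, 46 were at least 3-fold, 14 at least 4-fold and 2 at least 8-fold below every other library on that scale.

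The distance depended on which library SD day 5 was set against. The median log2 ratio of the 218 tags was -2.05 against SD day 2, -2.35 against LD day 0, -1.95 against LD day 2 and -1.39 against LD day 5. The rule fixes that all 218 are lower by 2-fold or more in each of these 4 comparisons, and the same was true of 20.0%, 23.7%, 17.9% and 8.52% of all 6208 tags in that order. LD day 5 was the closest library to SD day 5 for 140 of the 218 tags, SD day 2 for 30, LD day 2 for 25 and LD day 0 for 23. This split was not made for all tags, but among them too the share lower by 2-fold or more was smallest against LD day 5, at 8.52%. LD day 5 was also the library that limited the number of tags: without it in the rule, 667 tags would have been taken in place of 218.

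**Figure D1:**
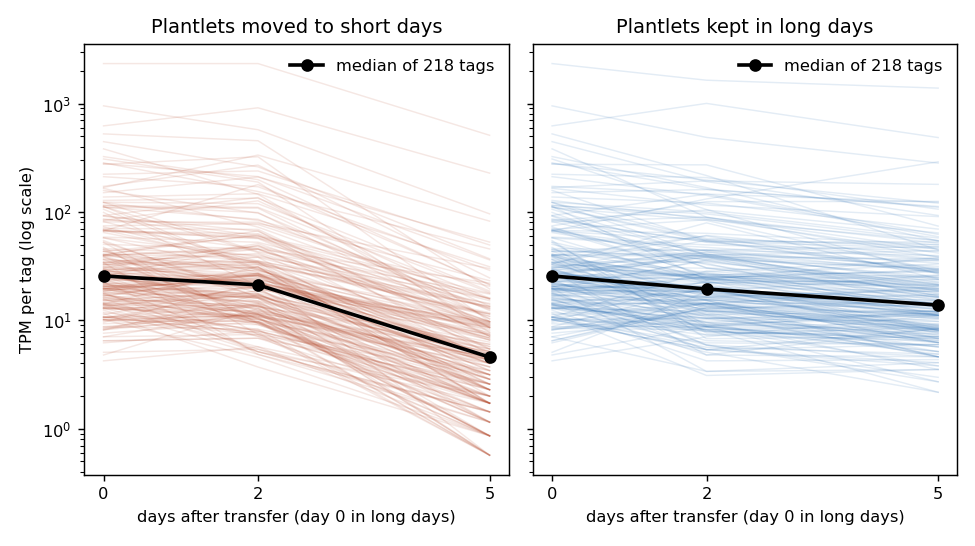
TPM of each of the 218 tags (thin lines, log scale) at days 0, 2 and 5 in plantlets moved to short days (left) and kept in long days (right), with the same LD day 0 library at day 0 in both panels; the black line is the median over tags. The median stood at 21.2 TPM in SD day 2 and 4.58 TPM in SD day 5, and on the right it stepped down less, to 13.8 TPM in LD day 5.

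The 6 tags with the largest loss lay far from the threshold. Tag 79 had 34.5 TPM in SD day 2 and 1.72 TPM in SD day 5, against 33.0, 22.3 and 23.6 TPM in LD days 0, 2 and 5. Its value in SD day 5 rests on 6 counted tags, and LD day 5 was 13.7 times higher (interval 6.06 to 38.4). Tag 18 was more abundant, at 135.7 TPM in SD day 2 and 10.3 TPM in SD day 5, against 92.7, 146.1 and 122.8 TPM in LD days 0, 2 and 5. Its other 4 libraries stood close together, and LD day 5 exceeded SD day 5 by 11.9-fold (interval 8.48 to 17.2). For tag 7 the values were 322.8 TPM in SD day 2 and 9.74 TPM in SD day 5, against 275.1, 271.6 and 74.0 TPM in LD days 0, 2 and 5. This tag was also lower in LD day 5 than earlier in long days, so that the ratio to SD day 5 was 33.1 for SD day 2 (interval 23.6 to 48.1) and 7.60 for LD day 5 (interval 5.31 to 11.2).

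The other 3 of these 6 tags ranged from 2 to 30 counted tags in SD day 5. Tag 75 was at 30.8 TPM in SD day 2 and 2.29 TPM in SD day 5, against 26.5, 38.1 and 21.4 TPM in LD days 0, 2 and 5. Tag 26 was at 98.7 TPM in SD day 2 and 8.59 TPM in SD day 5, against 115.6, 88.6 and 51.5 TPM in LD days 0, 2 and 5. LD day 5 exceeded SD day 5 by 9.35-fold in tag 75 (interval 4.52 to 22.4) and by 5.998-fold in tag 26 (interval 4.07 to 9.13). In both, SD day 2 lay within the range of the LD libraries. Tag 172 had 14.3 TPM in SD day 2 and 0.57 TPM in SD day 5, the latter from 2 counted tags, against 14.4, 8.18 and 8.95 TPM in LD days 0, 2 and 5. With so few tags its ratio of LD day 5 to SD day 5, 15.7, has an interval of 4.00 to 134.

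At the threshold itself the tags were hardly apart from those left out. Of the 3 tags just inside, tag 149 lay on the threshold, and tags 107 and 167 each had a log2 ratio to their lowest other library of -1.001. The 3 tags just outside had -0.998, -0.994 and -0.991. Tag 149 stood at 22.2 TPM in SD day 2 and 4.29 TPM in SD day 5, against 9.58, 14.4 and 9.76 TPM in LD days 0, 2 and 5. The nearest tag outside stood at 60.7 TPM in SD day 2 and 24.3 TPM in SD day 5, against 62.9, 82.9 and 49.6 TPM in the LD libraries. For 213 of the 218 tags the counting interval of the ratio to the lowest other library lay above 1, an outcome largely fixed by the choice of tags on this same ratio.

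The 218 tags covered the whole range of abundance. Their mean over the other 4 libraries ran from 5.47 to 1924 TPM, with a median of 20.0 TPM and quartiles of 12.6 and 41.0 TPM. Among all tags with such a mean of 10 to 20 TPM, 74 of 1931 were taken, or 3.83%, and among those of 100 to 200 TPM 13 of 342, or 3.80%. Below 10 TPM the share was 2.87%, and at 200 TPM or more it was 2.84%, with 8 of 282 tags. The share of tags taken therefore stayed between 2.84% and 3.83% in all 6 classes of abundance compared. Together the 218 tags held 2.52% of the listed total in SD day 2 and 0.410% in SD day 5, against 2.79%, 1.92% and 1.23% in LD days 0, 2 and 5. In SD day 5 the median tag rested on 16 counted tags, 80 tags rested on 10 or fewer and 19 on 3 or fewer.

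The most abundant of them showed different courses in long days. Tag 1 had 2335 TPM in SD day 2 and 509 TPM in SD day 5, against 2336, 1640.1 and 1387 TPM in LD days 0, 2 and 5. Its SD day 2 value equalled that of LD day 0 within counting error, with a ratio interval of 0.970 to 1.03, while SD day 5 lay below LD day 5 by 2.72-fold (interval 2.58 to 2.88). Tag 2 had 912.6 TPM in SD day 2 and 227.9 TPM in SD day 5, against 621.8, 1002 and 485.1 TPM in LD days 0, 2 and 5. It was thus highest at day 2 in both photoperiods. Tag 3 had 572.8 TPM in SD day 2 and 95.9 TPM in SD day 5, against 951.2, 486.5 and 282.0 TPM in LD days 0, 2 and 5.

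Tags 4 and 5 stood lower at each later day in long days too, whereas tag 6 did not. Tag 4 had 453.6 TPM in SD day 2 and 19.5 TPM in SD day 5, against 524.5, 216.6 and 44.7 TPM in LD days 0, 2 and 5. Tag 5 had 260.6 TPM in SD day 2 and 36.9 TPM in SD day 5, against 444.8, 190.4 and 92.7 TPM in LD days 0, 2 and 5. In both, SD day 2 lay above LD day 2 and SD day 5 below LD day 5. Tag 6 had 334.4 TPM in SD day 2 and 82.2 TPM in SD day 5, against 168.0, 192.9 and 179.5 TPM in LD days 0, 2 and 5. Its LD day 5 value was 1.07 times that of LD day 0 (interval 0.955 to 1.20), and SD day 2 was its highest library.

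The loss came late in short days. SD day 2 differed little from LD day 0 in most of these tags, as it did in most of all 6208 tags. The median log2 ratio was -0.20 in the 218 tags and -0.08 in all tags, and 179 of 218 were within 2-fold. By 2-fold or more, 35 of the 218 tags, or 16.1%, had a lower value in SD day 2 when set against LD day 0, beside 13.2% of all tags, and 4 were higher, or 1.83%, against 8.13% of all tags. Against LD day 2, 8 of the 218 were lower in SD day 2, or 3.67%, where 20.0% of all tags were, and 12 were higher, or 5.50%, where 6.85% of all tags were. In the median tag 91.6% of the log2 distance between LD day 0 and SD day 5 lay after SD day 2. LD day 0, LD day 2 and SD day 2 all entered the rule, so these shares describe the tags and test nothing.

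The 4 tags with the highest ratio of SD day 2 to LD day 0 were the 4 that stood higher by 2-fold or more after 2 short days. Tag 12 had 178.8 TPM in SD day 2 and 21.5 TPM in SD day 5, against 66.8 TPM in LD day 0, a ratio of SD day 2 to LD day 0 of 2.68 (interval 2.30 to 3.12). Tag 139 had 31.4 TPM in SD day 2 and 1.72 TPM in SD day 5, against 14.1, 14.4 and 4.61 TPM in LD days 0, 2 and 5. Tag 211 had 12.8 TPM in SD day 2 and 0.57 TPM in SD day 5, against 4.79, 8.74 and 2.71 TPM in LD days 0, 2 and 5. In tags 139 and 211, as in tag 149 above, SD day 2 was the highest of the 5 libraries, while tag 12 was higher still in LD day 5. The value of tag 211 in SD day 5 rests on 2 counted tags. In all, 54 of the 218 tags had their highest value in SD day 2, and 123, 33 and 8 had it in LD days 0, 2 and 5. This split is not given here for all tags, so it describes the 218 alone.

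In constant long days the majority of these tags also stood lower at day 5 than at day 0, by less. The median log2 ratio of LD day 5 to LD day 0 was -0.84 over the 218 tags and 0.17 over all 6208. LD day 5 was below LD day 0 at any size in 189 of 218, while among all tags more lay above LD day 0 than below it. By 2-fold or more, 99 of the 218, or 45.4%, were lower in LD day 5 than in LD day 0, against 18.2% of all tags. Only 3, or 1.38%, were higher, against 23.7% of all tags, and the other 116 were within 2-fold. LD day 2 was lower than LD day 0 by 2-fold or more in 46, or 21.1%, against 12.8% of all tags, and higher in 5, or 2.29%, against 19.6%. The LD libraries stepped down at each day, from day 0 over day 2 to day 5, in 123 of the 218 tags, or 56.4%, and in 22.0% of all tags. The LD libraries all entered the rule, so these shares are descriptions too. SD day 5 and LD day 5 were both set against the same LD day 0 library, so a high value there lowers both ratios. In the median tag LD day 5 covered 39.0% of the log2 distance between LD day 0 and SD day 5.

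Between day 2 and day 5, where the photoperiods share no library, the change in long days was smaller than in short days. The median log2 ratio of LD day 5 to LD day 2 was -0.51 in the 218 tags and 0.04 in all tags. That of SD day 5 to SD day 2 was -2.05 in the 218 tags and -0.06 in all tags. LD day 5 was lower than LD day 2 by 2-fold or more in 35 of the 218, or 16.1%, against 9.57% of all tags, and higher in 1, or 0.459%, against 6.49%. The other 182 stayed within 2-fold, as most of all tags did. The ratio was lower in SD than in LD in 217 of the 218 tags, with a median difference of -1.60 on the log2 scale. This count was not made for all tags, so it describes the 218 alone. The rule requires SD day 5 to be below all 4 libraries, and so this order is largely built into the choice of tags.

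**Figure D2:**
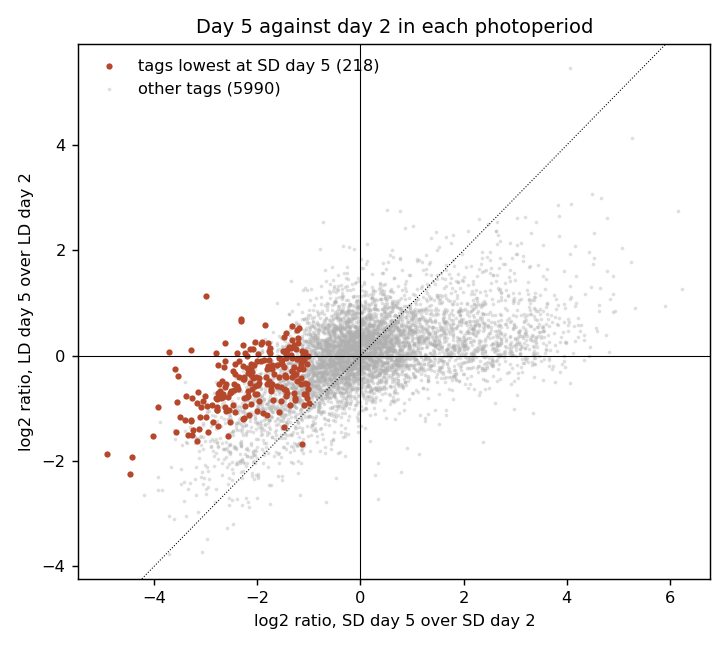
Log2 ratio of day 5 to day 2 on the log2(TPM + 1) scale in short days (x) and long days (y) for the 218 tags and for the other 5990 tags compared; the dotted line marks equal ratios. The 218 tags lie at -1 or below in SD, and 182 of them lie within 1 log2 unit of 0 in LD. Of all tags, 9.57% lie at or below -1 in LD and 6.49% at or above 1.

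The tags with the lowest ratio of LD day 5 to LD day 0 were far below their day 0 value in long days as well. In tag 4, described above, LD day 5 was 11.7-fold below LD day 0 (interval 9.99 to 13.8), and SD day 5 was 2.30-fold below LD day 5 (interval 1.72 to 3.09). Tag 16 had 188.5 TPM in SD day 2 and 7.73 TPM in SD day 5, against 307.8, 105.2 and 26.8 TPM in LD days 0, 2 and 5. Tag 15 had 145.4 TPM in SD day 2 and 8.59 TPM in SD day 5, against 381.6, 89.4 and 45.0 TPM in LD days 0, 2 and 5. In each of these, SD day 2 stood above LD day 2 and SD day 5 below LD day 5. Tag 109 had 16.3 TPM in SD day 2 and 2.29 TPM in SD day 5, against 54.4, 6.77 and 7.05 TPM in LD days 0, 2 and 5, with LD days 2 and 5 close together and LD day 0 far above both.

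The 4 tags with the highest ratio of LD day 5 to LD day 0 were among the 8 that were highest in LD day 5. Tag 159 had 5.42 TPM in SD day 2 and 1.72 TPM in SD day 5, against 5.07, 18.3 and 26.03 TPM in LD days 0, 2 and 5. LD day 5 was 5.13-fold above LD day 0 in this tag (interval 3.08 to 9.02). Tag 12 had 131.7 TPM in LD day 2 and 290.1 TPM in LD day 5, which was 4.34-fold above LD day 0 (interval 3.77 to 5.02) and 13.5-fold above SD day 5 (interval 10.7 to 17.3). Tags 12 and 159 thus moved apart between the photoperiods. Tag 212 had 5.70 TPM in SD day 2 and 0.86 TPM in SD day 5, against 4.23, 7.05 and 11.1 TPM in LD days 0, 2 and 5. Tag 183 had 6.84 TPM in SD day 2 and 2.58 TPM in SD day 5, against 6.48, 12.97 and 13.8 TPM in LD days 0, 2 and 5.

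In 90 of the 218 tags, or 41.3%, all 4 other libraries were within 2-fold of each other, which held for 36.2% of all tags in the same 4 libraries. In these 90, SD day 5 alone stood apart, as the rule requires. The 4 with the closest values were tags 175, 52, 143 and 92. Tag 52 was the most abundant of them, with 39.9 TPM in SD day 2 and 13.2 TPM in SD day 5, against 45.9, 44.3 and 39.6 TPM in LD days 0, 2 and 5. Tag 175 had 11.1 TPM in SD day 2 and 2.58 TPM in SD day 5, against 10.2, 10.4 and 11.7 TPM in the LD libraries. Tag 143 had 16.8 TPM in SD day 2 and 4.29 TPM in SD day 5, against 14.7, 14.1 and 14.6 TPM in the LD libraries. Tag 92 had 21.7 TPM in SD day 2 and 9.16 TPM in SD day 5, against 26.2, 23.4 and 22.5 TPM in the LD libraries. In these 4 the intervals of LD day 5 over LD day 0 all included 1, an outcome largely fixed by choosing the tags with the closest values. LD day 5 exceeded SD day 5 by 4.52-fold in tag 175 (interval 2.18 to 10.6) and by 3.01-fold in tag 52 (interval 2.14 to 4.28).

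Beyond the rule, the 218 tags differed from all tags in the last 2 bases of the tag, which were compared after the values had been seen. Of the 218, 73 tags ended in GA, which is 33.5% of them, while this ending made up 7.43% of all 6208 tags. Seen from the ending, 15.8% of the 461 tags ending in GA were taken. A share above 9% was also found for tags ending in CG, with 10 of 86 or 11.6%, and in CC, with 16 of 165 or 9.70%. Tags ending in AG gave 0 of 433 and those ending in TT gave 1 of 706. The second last base was G in 110 of the 218 tags, or 50.5%, against 22.1% of all tags, and A in 11, or 5.05%, against 31.4%. Elsewhere, base 1 after the restriction site was G in 30.3%, against 19.5% of all tags, and A in 33.0%, against 44.1%, and base 9 was A in 41.7%, against 30.7%. The median GC content of the 17 bases after the site was 38.2% in the 218 tags and 35.3% in all tags.

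The same 2 bases went with the differences between libraries in all 6208 tags. They accounted for 34.8% of the variance of the log2 ratio of SD day 5 to SD day 2, 24.3% against LD day 0, 15.6% against LD day 2 and 14.7% against LD day 5. For LD day 5 over LD day 0 they accounted for 24.5%. Grouping the tags by the 2 middle bases accounted for between 0.208% and 0.538% in these 5 comparisons. Tags ending in GA had a median log2 ratio of SD day 5 to SD day 2 of -0.89 and those ending in TT of 2.17, while the median of all tags was -0.06. As background, in tag libraries of this kind the far end of the tag is where the second adapter is joined. Ending and library thus moved together with the late loss, and the transcripts behind these endings are not known.

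**Figure D3:**
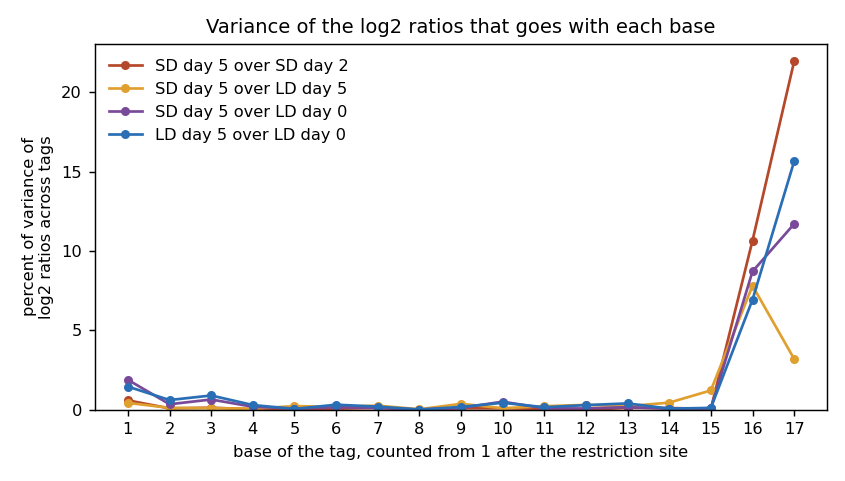
Percent of the variance of log2 ratios across all 6208 tags that goes with the base at each place of the tag, counted from 1 after the restriction site, for 4 comparisons of libraries. Bases 16 and 17, the last 2, reached up to 10.7% and 21.9%, and the bases from 2 to 15 stayed at or below 1.22%.

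Centring was therefore done on the endings, after the data had been seen. From each library the median deviation of all tags with the same last 2 bases was taken away, and the rule was applied again. It then found 183 tags, of which 128 were among the 218, so that 58.7% of the 218 tags were kept and 90 were not. The 90 had centred log2 ratios of SD day 5 to the lowest other library between -0.99 and -0.07. That all stayed below 0 was largely fixed by choosing the tags on the deposited ratio. Over all 218 tags the median of that ratio was -1.11 when centred and -1.27 as deposited. Of the 73 tags ending in GA, 42 were kept, and of the 32 ending in TG 15 were. Centring on the 2 middle bases in the same way found 213 tags and kept 205 of the 218.

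**Figure D4:**
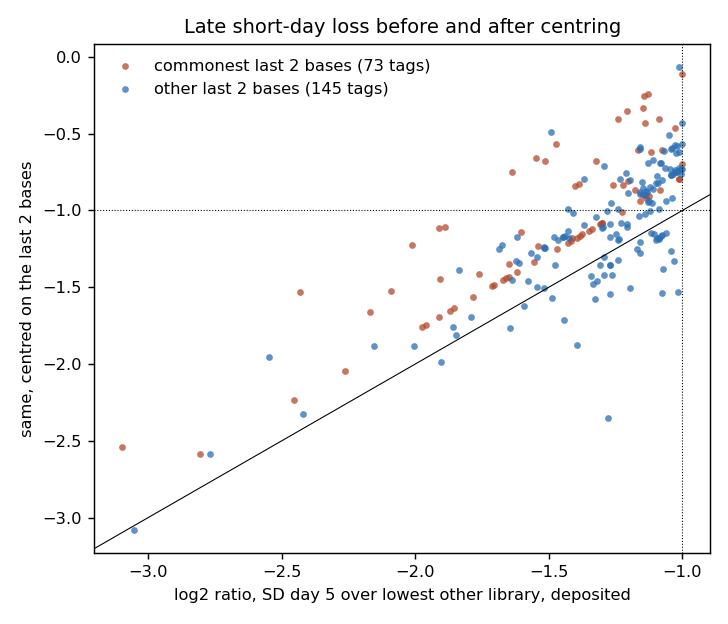
Log2 ratio of SD day 5 to the lowest other library for each of the 218 tags, as deposited (x) and centred on the last 2 bases (y), in colour by whether the tag has their commonest ending (73 tags) or another (145 tags). The solid line marks equal values, and the 128 tags at or below the dotted horizontal line at -1 were kept.

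Among the tags named above, all 6 with the largest loss were kept, an outcome largely fixed by choosing those farthest from the threshold. Their centred ratios were -3.08 for tag 18, -2.59 for tag 7, -2.58 for tag 75, -2.54 for tag 79, -2.24 for tag 26 and -1.95 for tag 172. Of the 6 most abundant tags, tag 1 was kept at -1.72, tag 3 at -1.30 and tag 5 at -1.09. Tags 2, 4 and 6 were not, at -0.99, -0.94 and -0.63. Of the 4 tags whose other libraries stood closest together, tag 52 alone was kept, at -1.24, and the 3 tags just inside the threshold were all lost.

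After centring, the median in long days was still below 0, with fewer tags lower and more tags higher. By 2-fold or more, 66 of the 218 tags, or 30.3%, were lower in LD day 5 than in LD day 0, against 15.1% of all tags, and 7, or 3.21%, were higher, against 20.2% of all tags. The median log2 ratio was -0.57 over the 218 tags and 0.15 over all tags. Within the 73 tags ending in GA the median as deposited was -1.08, beside -0.54 for all 461 tags with that ending. Within the 145 tags with other endings it was -0.76, beside 0.23 for all 5747 such tags. Of the 3 tags higher in LD day 5 than in LD day 0 by 2-fold or more, tag 12 was kept by the centred rule at -1.62, and tags 159 and 212 were not, at -0.88 and -0.49.

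**Figure D5:**
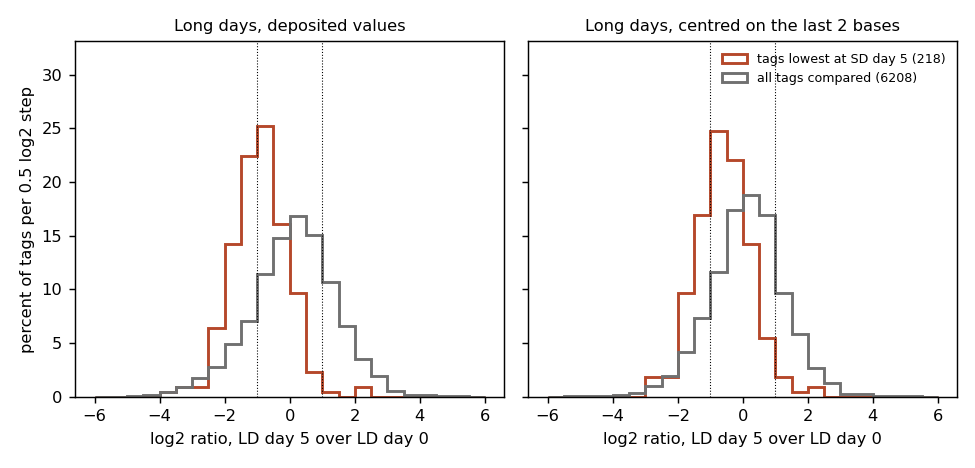
Distribution of the log2 ratio of LD day 5 to LD day 0, in percent of tags per step of 0.5, for the 218 tags and for all 6208 tags, as deposited (left) and centred on the last 2 bases (right), with dotted lines at -1 and 1. The medians of the 218 tags are -0.84 on the left and -0.57 on the right, and those of all tags are 0.17 and 0.15.

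Near-identical tags were also counted. A listed tag that differs by 1 base exists for 9 of the 218 tags, or 4.13%, and for 2.37% of all tags, so that reads of near-identical transcripts or misread bases could be shared in these 9.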

How the data were processed

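The 5 libraries are 1 tag library per group, for which the labels' protocols name Illumina's Gene Expression Sample Prep Kit. The deposited values are headed TPM, per the file headers, and are RPM (tags per 1000000 tags of the library), since 99.98% to 100% of a library's values are whole multiples of 1 step within 0.006 TPM. Aligner, reference and filters: not given in the sources used here. Whole tags, for counting intervals (Clopper-Pearson, conditional on the sum, scipy 1.17.1), were recovered from that step; intervals cover counting error only. Log2 ratios use a pseudocount of 1 TPM, which understates changes of low tags. The 218 tags, the lists and the alternatives were chosen with earlier results of these data known. Tags were named by rank: 6 by mean TPM, 6 by loss, 4 by each end of LD day 5 over LD day 0, 4 by SD day 2 over LD day 0, 4 by closeness of the other libraries, and 3 on each side of the threshold. Gene lists could not be evaluated. The procedure was tested on simulated data, with 4-fold losses planted among otherwise unchanged tags and counting error as the only noise. That loss is larger than in most of the 218 tags. Alternatives were other scalings, pseudocounts, minimum values and fold limits, and, added after the data had been seen, centring on tag bases and leaving a library out of the rule. A tag missing from a library was not compared.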

Additional observations from a re-analysis of the deposited data

Results flagged for a closer look

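In 3 of the 218 tags long days went the opposite way to short days between day 0 and day 5 by 2-fold or more. The log2 ratio of LD day 5 to LD day 0 was 2.15 in tag 159, 2.10 in tag 12 and 1.21 in tag 212, while SD day 5 lay below LD day 0 in each. Tag 12 also had a log2 ratio of LD day 5 to LD day 2 of 1.13, with SD day 5 below SD day 2. With 1 library per group this difference between photoperiods was not tested.

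Outside the tags compared, 192 tags had 10 TPM or more in each of the other 4 libraries and were not listed in SD day 5. The same count was 236 for SD day 2, 215 for LD day 0, 180 for LD day 2 and 182 for LD day 5. Of the 192, 22 ended in GA, or 11.5%, and the median tag stood at 35.9 TPM in the middle of its 4 libraries.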

How the results depend on the processing

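Of 51 alternative values, 34 stayed within 1.5 times the count or within the 95% order-statistic interval of the median, 17 moved and 0 changed sign. A change of sign was not possible, since counts have no sign and the rule holds these medians below 0. The number of tags was 68 with a pseudocount of 5, 65 with a minimum of 50 TPM, 46 and 14 at limits of 3-fold and 4-fold, 573 with tags unlisted in SD day 5 set to 0, and 667 without LD day 5 in the rule, which by construction can only add tags. The median log2 ratio of SD day 5 to LD day 5 moved to -1.49 and -1.21 with pseudocounts of 0.1 and 5. That of SD day 5 to SD day 2 moved to -2.28 with a pseudocount of 0.1, -1.86 with no minimum, -2.28 with a minimum of 50 TPM and -1.87 when centred on the last 2 bases. Each of these medians was taken over the tags that met the rule under that setting. Over the 218 tags themselves, the centred median of SD day 5 to SD day 2 was -1.67. Tags lower in LD day 5 than in LD day 0 numbered 34 of 68 with a pseudocount of 5, in place of 99 of 218. With a minimum of 50 TPM they numbered 42 of 65, so the counts were lower and the shares were not. Those higher numbered 5 of 280 and 1 of 68 with pseudocounts of 0.1 and 5, and 1 of 65 with that minimum. The cause of the other shifts was not tested. TMM and median-of-ratios scaling gave 170 and 152 tags, of which 170 and 151 were among the 218. No paired analysis was possible because each group has 1 library. Depth limits the 19 tags with 3 or fewer counted tags in SD day 5 most.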
